A study of Mus musculus with 104 samples.

Results

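The 10 genes described here mark heart muscle, and all 10 were found by symbol, among 22592 rows of the RNA table of the Kmt2b set and 22593 rows of the RNA table of the Tet1/2 set. They are Myl7, Myl4, Myl3, Tnni1, Tnnt2, Tnnc1, Actc1, Acta2, Csrp3 and Hopx. They were selected on expression differences of these same libraries, chiefly the high values of 1 Kmt2b knockout library at embryonic day 9.5 (E9.5), so the values of the Kmt2b contrasts are a description and carry no test. The study followed mouse gastrulation, and its RNA-seq libraries (Smart-seq2, a full-length method for small inputs) came from epiblasts at E6.5 and from heads at E8.5 and E9.5. The heads were separated by a cut close to the neck. In the Kmt2b set there were 3 wild-type (WT) and 3 Kmt2b-/- epiblasts, 3 WT and 2 Kmt2b-/- heads at E8.5, and 3 WT heads and 1 Kmt2b-/- library labelled head at E9.5. In the Tet1/2 set there were 2 WT and 2 Tet1-/-;Tet2-/- heads (double knockout, DKO) at E8.5 and 2 DKO epiblasts, set beside the 3 WT epiblasts of the Kmt2b set. The labels give no strain for the mutant embryos and do not say whether the replicates are separate embryos or pools, and a p-value below reflects nothing but how far these libraries scatter, which may be technical.

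The heart is the first organ to work, and its muscle cells arise from mesoderm that lies just beneath the folding head before the heart tube moves away from it. Their contractile unit, the sarcomere, has thick filaments of myosin, whose head carries an essential and a regulatory light chain, and thin filaments of actin. On the thin filament, troponin T anchors the complex to tropomyosin, troponin I inhibits contraction and troponin C binds calcium to release it. Myl7 encodes the atrial regulatory light chain, which marks the whole early heart tube, Myl4 the atrial essential light chain, and Myl3 the ventricular essential light chain, shared with slow skeletal muscle. Tnni1, Tnnt2 and Tnnc1 encode the troponins of the embryonic heart, of which Tnni1 and Tnnc1 also serve slow skeletal muscle. Actc1 is cardiac actin and Acta2 is smooth muscle actin, which early heart muscle also makes. Csrp3 encodes a LIM protein of the Z-disc. Hopx encodes a small homeodomain protein that does not bind DNA and regulates heart genes, so it is not itself a contractile gene, and the group's name does not cover it.

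Of the 10 genes, 4 carry a strict CArG box within the 250 bases before an annotated start site. The CArG box is the element bound by serum response factor at many muscle genes. The strict form is 10 bases, with CC and GG at the ends and only A or T between, and boxes with a mismatch were not searched for. The 4 windows are printed with the box in capitals because the genes' levels moved largely together, with Hopx the exception. The windows are from RefSeq on build GRCm38.p6, given 5′ to 3′ along the gene. The one of Myl7 is chr11:5898783-5899032 (minus strand), of Myl3 chr9:110763428-110763677 (plus strand), of Actc1 chr2:114052876-114053125 (minus strand), and of Hopx chr5:77115124-77115373 (minus strand, the first of its 2 annotated starts).
Myl7: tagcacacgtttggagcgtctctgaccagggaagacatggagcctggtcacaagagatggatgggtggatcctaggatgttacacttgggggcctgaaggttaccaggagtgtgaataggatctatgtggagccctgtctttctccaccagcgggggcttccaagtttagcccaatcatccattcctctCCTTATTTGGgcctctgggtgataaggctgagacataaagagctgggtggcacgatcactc
Myl3: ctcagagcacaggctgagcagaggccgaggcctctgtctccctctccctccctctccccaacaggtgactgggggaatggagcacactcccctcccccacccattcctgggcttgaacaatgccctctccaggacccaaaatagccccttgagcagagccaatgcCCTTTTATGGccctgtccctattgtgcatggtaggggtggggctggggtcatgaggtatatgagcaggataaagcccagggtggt
Actc1: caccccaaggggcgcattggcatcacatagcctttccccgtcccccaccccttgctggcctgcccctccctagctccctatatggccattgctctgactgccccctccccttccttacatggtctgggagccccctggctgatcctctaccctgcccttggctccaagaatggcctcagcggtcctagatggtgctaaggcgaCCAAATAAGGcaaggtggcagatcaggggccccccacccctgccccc
Hopx: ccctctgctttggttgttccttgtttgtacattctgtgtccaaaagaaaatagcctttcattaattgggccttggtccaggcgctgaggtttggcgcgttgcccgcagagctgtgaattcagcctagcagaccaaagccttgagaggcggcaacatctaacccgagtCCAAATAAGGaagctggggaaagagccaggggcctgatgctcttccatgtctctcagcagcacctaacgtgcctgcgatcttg
Counting back from the start site, the box lies at -61 to -52 in Myl7, at -85 to -76 in Myl3, at -47 to -38 in Actc1 and at -83 to -74 in Hopx. Actc1 and Hopx hold the same bases, CCAAATAAGG, whereas Myl7 holds CCTTATTTGG and Myl3 holds CCTTTTATGG. The 10 genes have 14 windows of this length in the table. On either strand a strict CArG box is present in 4 of the 14 and in 1.47% of all 32851 windows. The motif CATTCC, the core that TEAD factors bind, is in 5 of the 14 (Myl7, Myl3, Tnnt2, Tnnc1 and Acta2) and in 12.6% of all windows, and GATAA, which factors of the GATA family bind, in 4 of the 14 (Myl7, Myl3, Tnnt2 and Acta2) and in 22.6%. AAGTG, an NKX2-5 core, is in 5 of the 14 and in 40.7%, and a MEF2 site in none of the 14 and in 2.92%. None of the matches overlaps a CArG box. These matches describe the letters of the windows, not sites of binding.

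Values are FPKM, a read density per length of transcript and per library, which the authors normalized so that the depth of each library is unknown, and differences are of log2(FPKM + 1), which understates the change of low genes. The table of the Kmt2b set has 1 merged column for each group, and a single library for the E9.5 KO, so it gives no spread. The table of the Tet1/2 set has 1 column for each library. The 2 tables were normalized separately, and the E9.5 columns were not brought to the same distribution as the others of their table. As a check of the labels, Wbp7, an older name that RefSeq gives to Kmt2b, was at 0.701 FPKM in WT and 0.308 FPKM in KO epiblasts, 0.600 and 0.133 FPKM in E8.5 heads, and 1.20 and 0.0349 FPKM in E9.5 heads. RefSeq gives Mll2 as a name of the same gene, but Mll2 has a row of its own here, and in older mouse annotation it can be another gene. The Mll2 row, which was not lower in KO (0.891 and 1.87 FPKM at E9.5), is therefore no check of the labels. Tet1 stood at 2.55 and 3.33 FPKM in the WT heads and at 1.28 and 1.29 FPKM in the DKO heads. In the epiblasts it was at 4.77, 6.29 and 5.02 FPKM in WT and at 3.82 and 2.92 FPKM in DKO. Tet2 was at 0.430 and 0.488 FPKM in WT heads and at 0.251 and 0.383 FPKM in DKO heads. Its epiblast values overlapped, at 0.254, 0.302 and 0.498 FPKM in WT and 0.180 and 0.266 FPKM in DKO. The E9.5 KO column carries E95Em in its name where the WT column of that stage carries E95Head, while its label says head. The tissue of that library is therefore in doubt, and its values below are those of the library labelled E9.5 KO head.

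In the epiblast, before any heart exists, 1 of the 10 genes was well above 1 FPKM. Myl7 was at 12.7, 12.6 and 11.1 FPKM in the 3 WT epiblasts, a mean of 12.2 ± 0.902 (SD, n = 3), and at 11.9 and 12.9 FPKM in the 2 DKO epiblasts. The groups overlapped. Hopx was low, at 1.04, 0.431 and 1.06 FPKM in WT and 1.99 and 3.50 FPKM in DKO epiblasts, where both DKO libraries lay above the 3 WT. Myl4 was at 1.82, 0.575 and 0.471 FPKM in WT and at 0.387 and 0 FPKM in DKO epiblasts, and Actc1 at 0.270, 0.325 and 1.86 FPKM in WT and at 0.409 and 0 FPKM in DKO. The other 6 genes stayed below 1 FPKM in all 5 epiblasts. Csrp3 was listed at 0 in all 5.

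**Figure D1:**
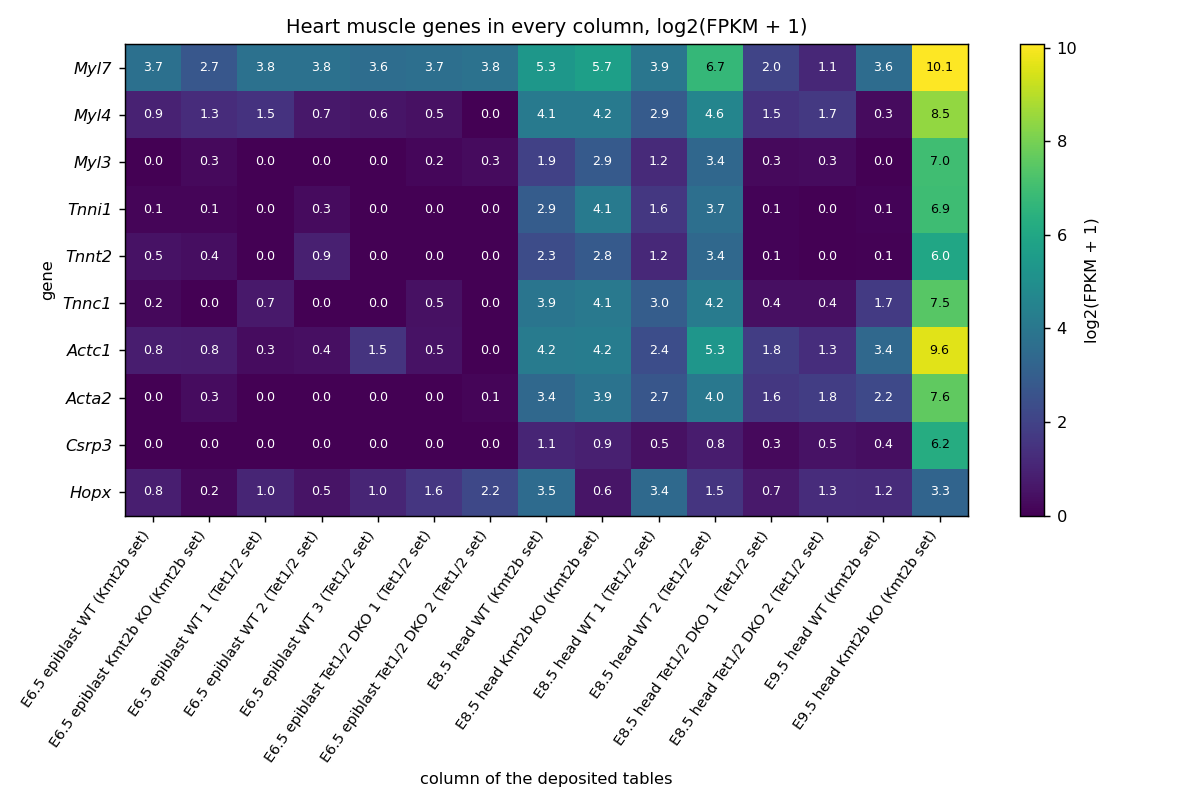
Level of the 10 genes (rows) in each of the 15 columns used (log2 of FPKM plus 1, by colour and printed number), ordered by stage. Each column of the Tet1/2 set is 1 library, those of the Kmt2b set merge 2 or 3 libraries, and the E9.5 KO is 1 library. That last column is the brightest for every gene but Hopx, and the epiblast columns are dark except for Myl7.

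The WT heads at E8.5 expressed the heart genes, and the 2 WT libraries of the Tet1/2 set differed widely. Among the light chains, Myl7 was at 14.4 FPKM in replicate 1 and 103 FPKM in replicate 2, with 39.4 FPKM in the merged WT column of the Kmt2b set. Myl4 was at 6.37 and 22.8 FPKM, with 16.3 FPKM merged. Myl3 was at 1.28 and 9.32 FPKM, with 2.84 FPKM merged. For each light chain the merged column fell between the 2 libraries. Among the troponins, Tnni1 was at 2.08 and 11.8 FPKM with 6.61 FPKM merged, and Tnnt2 at 1.23 and 9.63 FPKM with 4.08 FPKM merged. Tnnc1 was at 6.95 and 17.3 FPKM, with 14.1 FPKM merged. Troponin T, the anchor of the complex, thus had the widest gap of the 3, a ratio of 7.83 between replicates, and troponin C the narrowest, 2.48. Cardiac actin Actc1 was at 4.24 and 38.2 FPKM with 17.0 FPKM merged, a ratio of 8.99, and Acta2 at 5.42 and 15.3 FPKM with 9.60 FPKM merged, a ratio of 2.82. The 2 actins encode near-identical proteins, and whether reads were shared between the 2 genes was not tested. Csrp3 was low throughout, at 0.378 and 0.709 FPKM with 1.09 FPKM merged.

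Hopx ran the other way. It was at 9.79 FPKM in replicate 1 and 1.93 FPKM in replicate 2, 5.09 times as high in replicate 1, with 10.5 FPKM in the merged column. Of the 9 genes that passed the filter of the Tet1/2 table (at least 1 FPKM in at least 2 libraries), 8 were at least 2-fold higher in WT replicate 2 than in replicate 1 on the log2(FPKM + 1) scale, and Hopx was at least 2-fold lower. Over all 10867 genes, 0.617% were that much higher and 0.598% that much lower. The median difference was 2.05 over the 9 genes and 0.00 over all genes, and the summed FPKM of the 10 genes was 52.1 in replicate 1 and 230.3 in replicate 2. The 2 DKO heads stood closer together, with sums of 11.1 and 9.81 FPKM. The merged WT column lay between the 2 WT libraries for 8 of the 10 genes and above both for Csrp3 and Hopx.

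**Figure D2:**
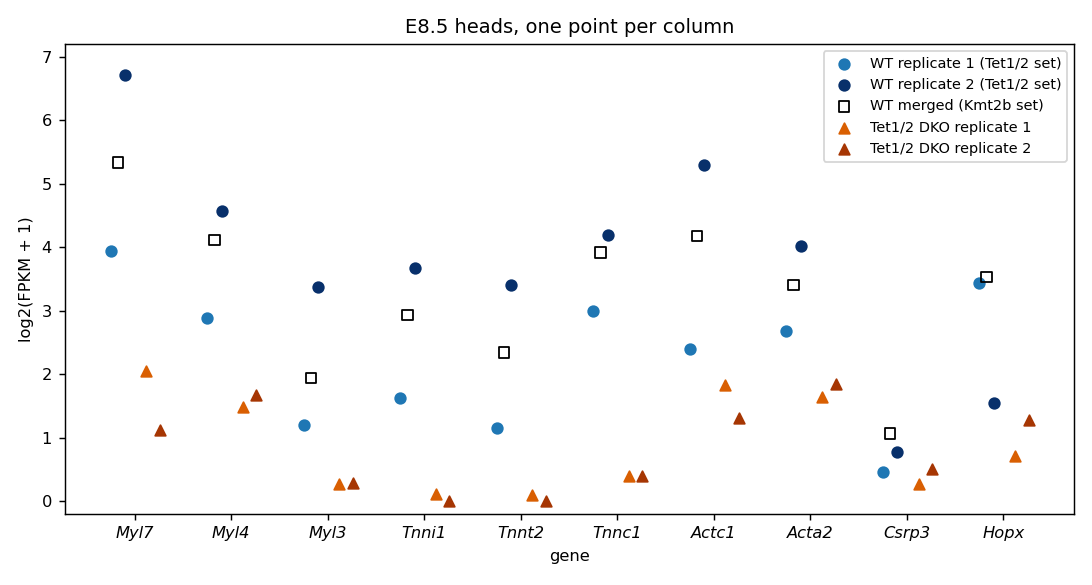
Level of the 10 genes in the E8.5 heads (log2 of FPKM plus 1), 1 point for each column: circles, the 2 WT libraries of the Tet1/2 set, square, the merged WT column of the Kmt2b set, and triangles, the 2 DKO libraries. WT replicate 2 is the highest point for 8 genes, and for Csrp3 DKO replicate 2 reaches above WT replicate 1.

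Other heart genes that passed the filter stood closer together in the 2 WT heads. Of the 18 heart transcription factors 7 passed the filter, with a median difference of 0.07 between replicate 2 and replicate 1. Hand1, a factor of the early heart fields, was the 1 of them at least 2-fold higher in replicate 2, at 0.394 and 3.06 FPKM. The summed FPKM of that list was 24.4 and 35.9. Of its 14 genes that reached 1 FPKM in some column, 12 were higher in replicate 2, with a median difference of 0.48. Those of the 14 that failed the filter were all higher in replicate 2. Among them, named after their values were seen, were Nkx2-5 (0.867 and 1.94 FPKM), Gata5 (0.490 and 1.55 FPKM), Myocd (0.370 and 1.47 FPKM) and Gata4 (0.0563 and 0.587 FPKM). Hey1 and Hey2, which passed, were lower in it. Of the 31 other sarcomere and calcium-handling genes 6 passed, none of them 2-fold apart, with a median difference of 0.43. The list's sum, most of it from the widely expressed tropomyosin gene Tpm1 (187 and 172 FPKM), was 212 and 208 FPKM. Of that list's 21 genes that reached 1 FPKM in some column, 16 were higher in replicate 2, with a median difference of 0.33. Of these, 3 were at least 2-fold higher, and none of the 21 was 2-fold lower. The share of all genes higher in replicate 2 by any amount was not counted. Endothelial markers summed to 31.8 and 37.1 FPKM, but of 7 that reached 1 FPKM in some column only 2 were higher in replicate 2, with a median difference of -0.29. Neural tube and brain markers summed to 217 and 184 FPKM, and foregut and other endoderm markers to 103 and 119.9 FPKM. Embryonic red cell genes were near 0 in both, at 0.668 and 0.304 FPKM in sum. How much tissue from beside the cut each library held was not tested, and more heart cells or more RNA of these genes per cell cannot be told apart in bulk tissue.

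In heads without Tet1 and Tet2, the contractile genes were at low levels. Myl7 was at 3.14 and 1.17 FPKM in the 2 DKO heads, below both WT values and also below the 11.1 to 12.9 FPKM of the epiblasts. Myl4 was at 1.79 and 2.19 FPKM and Myl3 at 0.209 and 0.212 FPKM. Tnni1 was at 0.0751 and 0 FPKM, Tnnt2 at 0.0635 and 0 FPKM, and Tnnc1 at 0.315 and 0.318 FPKM. For all 6 of these light chain and troponin genes, both DKO heads lay below both WT heads. Actc1 was at 2.54 and 1.49 FPKM and Acta2 at 2.12 and 2.59 FPKM, again below both WT values. Hopx, at 0.631 and 1.42 FPKM, was close below the lower WT head, and Csrp3, at 0.210 and 0.421 FPKM, overlapped with WT and did not pass the filter.

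None of the 9 genes that passed the filter was called in this comparison by limma, at an adjusted p under 0.05 over all 10867 genes, where 0.433% of all genes were called. The difference, DKO minus WT, with its standard error was -3.19 ± 0.40 for Tnnc1 (limma adjusted p = 0.0511), -3.74 ± 0.87 for Myl7 (adjusted p = 0.145) and -2.60 ± 0.62 for Tnni1 (adjusted p = 0.152). It was -2.15 ± 0.54 for Myl4 (adjusted p = 0.165) and -1.61 ± 0.43 for Acta2 (adjusted p = 0.182), with Tnnt2 at -2.24, Actc1 at -2.27, Myl3 at -2.0 and Hopx at -1.50 (adjusted p from 0.213 to 0.305). The 95% interval of Hopx, -3.04 to 0.04, was the only one that held 0, while that of Actc1 reached -0.07. Of the 9, 4 (Myl3, Tnni1, Tnnt2 and Tnnc1) passed the filter through the 2 WT heads alone, and so could not have come out higher in the DKO. Of the other 5, 4 had an unadjusted limma p under 0.05, Hopx being the exception, while 9.75% of all genes were lower at that level. All 5 had both WT heads above both DKO heads, as did 32.1% of all genes. The size of each difference followed the WT library kept. Without WT replicate 2 it was -2.36 for Myl7, -1.31 for Myl4, -0.82 for Actc1 and -0.94 for Acta2, and without WT replicate 1 it was -5.12, -3.0, -3.72 and -2.28 for the same genes. Hopx, higher in replicate 1, was at -2.44 without replicate 2 and at -0.56 without replicate 1. With all 4 groups in the fit, added for the spread, Tnnc1 (adjusted p = 0.00784) and Myl7 (adjusted p = 0.0495) were called.

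Other cell types moved beside these values, and their part in the result was not tested. Embryonic red cell genes summed to 377 FPKM in DKO replicate 1 and 5.0 FPKM in DKO replicate 2, against less than 1 FPKM in the WT heads. Heart transcription factors summed to 24.3 and 16.5 FPKM in the DKO heads, and Hand1 was at 0.0277 and 0.152 FPKM. Of the 14 factors that reached 1 FPKM in some column, 5 had both WT heads above both DKO heads. They were Hand1 and, named after their values were seen, Hand2, Gata5, Myocd and Nkx2-5. So did 11 of the 21 other sarcomere and calcium-handling genes that reached it, and 32.1% of all genes that passed the filter. Smooth muscle markers summed to 57.7 and 47.1 FPKM in DKO and to 73.2 and 75.4 FPKM in WT heads. Of that list's 9 genes that reached 1 FPKM in some column, 4 had both WT heads above both DKO heads, and 1 was called. That was Csrp1, a LIM protein gene related to Csrp3. It was at 21.5 and 22.3 FPKM in WT and 1.76 and 1.93 FPKM in DKO heads (difference -3.01, limma adjusted p = 0.0428). Unlike the light chains and troponins, Csrp1 was level between the 2 WT heads.

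From WT epiblast to WT head, 8 of the 9 genes rose, where 19.9% of all 11264 genes of this fit rose, but the 4 that passed the filter through the WT heads had to be higher there. Of the other 5, Acta2 rose by 3.35 ± 0.33 (limma adjusted p = 0.00019), Actc1 by 3.09 ± 0.74 (adjusted p = 0.0121), Myl4 by 2.83 ± 0.48 (adjusted p = 0.00238) and Hopx by 1.63 ± 0.50 (adjusted p = 0.0322). Acta2 stayed below 1 FPKM in every epiblast and passed the filter through WT and DKO heads alone, so it too had to be higher in heads. Myl7, already present in the epiblast, differed by 1.61 ± 0.66 (adjusted p = 0.0879). The value of Myl7 turned on the WT head kept: it differed by 2.99 without replicate 1 (limma adjusted p = 0.00151) and by 0.23 without replicate 2 (adjusted p = 0.655), the lone head then being assumed to vary like the other groups. Hopx differed by 0.69 without head replicate 1 (adjusted p = 0.235) and by 2.57 without replicate 2 (adjusted p = 0.00329), and it was not called when any 1 of the 3 WT epiblasts was left out (limma adjusted p from 0.0579 to 0.0917). The WT epiblasts are of the Kmt2b set and the WT heads of the Tet1/2 set, so stage and set cannot be told apart in this course. From DKO epiblast to DKO head, Acta2 rose by 1.67 ± 0.37 (adjusted p = 0.00593) and Myl7 fell by 2.16 on that scale (limma standard error 0.72, adjusted p = 0.0352), where 23.7% of all genes rose and 26.1% fell. The rise of Acta2 was again that of a gene that passed the filter through heads alone. The fall of Myl7 was lost in 10 of 14 alternative settings (largest adjusted p = 0.175).

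In the epiblast itself none of the 9 genes was called between DKO and WT, where 35.2% of all genes were. Hopx differed by 1.01 ± 0.50 (limma adjusted p = 0.143) and Myl7 by 0.03, with an interval of -1.47 to 1.53. The WT epiblasts belong to the other set, so genotype and set cannot be told apart there. The DKO difference in the head minus that in the epiblast was below 0 for 5 genes by limma, where 15.6% of all genes were called in that direction. They were Tnnc1 (-3.19 ± 0.54, adjusted p = 0.00553), Myl7 (-3.77 ± 0.98, adjusted p = 0.0251), Tnni1 (-2.50 ± 0.72, adjusted p = 0.0351), Hopx (-2.51 ± 0.74, adjusted p = 0.0377) and Acta2 (-1.68 ± 0.50, adjusted p = 0.0385). Tnnc1 and Tnni1 are among the genes that passed through the WT heads alone, and the count of 5 fell to 1 with no filter on low values, and to 1 also without WT epiblast replicate 3 or without either DKO head. It was 2 without WT epiblast replicate 1 or 2 or DKO epiblast replicate 2, and 3 without WT head replicate 2. With no filter the differences were the same size, and the limma adjusted p of the 4 that were lost lay between 0.0669 and 0.0908, with more genes tested.

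**Figure D3:**
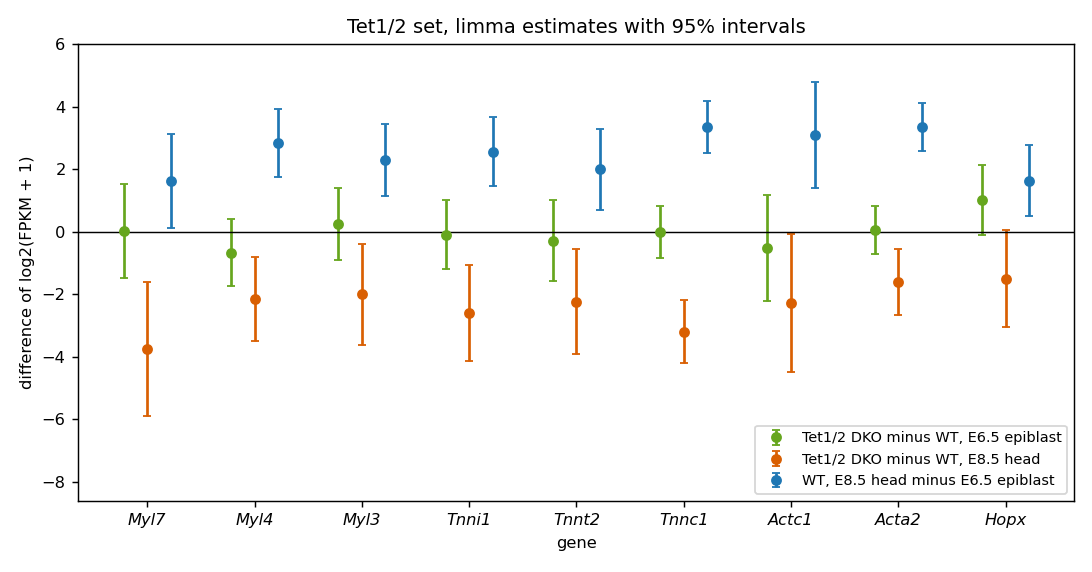
Differences of log2(FPKM + 1) in the Tet1/2 set with 95% intervals from limma, for the 9 genes that passed the filter: DKO minus WT in the epiblast (green) and in the head (orange), and WT head minus WT epiblast (blue). The head differences lie between -1.50 and -3.74, and the epiblast differences lie around 0.

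In heads without Kmt2b, a histone methyltransferase of the trithorax family, most of the heart genes were near WT at E8.5. In the merged columns, Myl7 was at 39.4 FPKM in WT and 50.2 FPKM in KO heads, Myl4 at 16.3 and 16.9 FPKM, and Myl3 at 2.84 and 6.26 FPKM. The troponins were at 6.61 and 16.2 FPKM (Tnni1), 4.08 and 6.17 FPKM (Tnnt2) and 14.1 and 16.0 FPKM (Tnnc1). Actc1 was at 17.0 and 17.9 FPKM, Acta2 at 9.60 and 13.5 FPKM, and Csrp3 at 1.09 and 0.848 FPKM. Of these genes Tnni1 alone was past 2-fold on the log2(FPKM + 1) scale, with a difference of 1.17, and Myl3 was short of it at 0.92, although its FPKM ratio was 2.20. Hopx stood out, at 10.5 FPKM in WT and 0.501 FPKM in KO, 21.0 times lower. So 1 of 10 was at least 2-fold higher and 1 at least 2-fold lower, with 2.22% and 2.51% of all 11073 genes so placed. For 8 of the 10 genes the KO column lay within the range of the 3 WT head columns of both tables, Tnni1 lying above it and Hopx below it. The lowest WT value of Hopx, 1.93 FPKM in a single library, was itself 5.09 times below that of its replicate. Marker lists of other cell types also differed between the E8.5 columns, and their part in the result was not tested. From WT to KO, foregut and other endoderm markers summed to 106 and 250.2 FPKM, and embryonic red cell genes to 98.4 and 5.07 FPKM. Neural tube and brain markers summed to 195 and 119 FPKM, and endothelial markers to 33.99 and 21.95 FPKM. The endoderm rise lay mostly in Cldn6 (67.1 and 144.5 FPKM), Epcam (26.7 and 80.6 FPKM) and Cdh1 (3.01 and 15.3 FPKM), named after their values were seen. These were higher still in the WT epiblast. In that list Foxa2 and Hhex were also higher in KO, while Foxa1, Sox17, Shh and Nkx2-1 were lower.

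In the Kmt2b KO epiblast none of the 10 genes was 2-fold from WT on the log2(FPKM + 1) scale, with 1.08% of all genes that much higher and 0.623% lower. Myl7 came closest, at 12.1 FPKM in WT and 5.63 FPKM in KO, 2.15 times lower in FPKM, and a difference of -0.98 that crosses 2-fold when the columns are scaled to the same upper quartile. The 3 WT libraries behind the merged column lay between 11.1 and 12.7 FPKM in the other table. Hopx was at 0.800 and 0.153 FPKM, 5.24 times lower but under 1 FPKM in both, and the other 8 genes were below 1.5 FPKM in both columns.

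At E9.5 the WT heads held little of these transcripts. Myl7 was at 39.4 FPKM at E8.5 and 10.8 FPKM at E9.5, Actc1 was at 17.0 and then 9.73 FPKM, and Acta2 went from 9.60 to 3.65 FPKM. Myl4 went from 16.3 to 0.218 FPKM, Tnni1 from 6.61 to 0.0591 FPKM and Tnnt2 from 4.08 to 0.0545 FPKM, while Myl3 was listed at 0. Tnnc1 went from 14.1 to 2.27 FPKM and Hopx from 10.5 to 1.37 FPKM. In all, 8 of 10 were at least 2-fold lower at E9.5, against 10.3% of all genes, the others being Actc1 (-0.75) and Csrp3 (-0.70). The 2 stages were not normalized alike, and with a pseudocount of 5 FPKM the count was 5.

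The E9.5 Kmt2b KO library, the one on which the genes were chosen and whose column name (E95Em) leaves its tissue in doubt, held the highest value of all 15 columns for 9 of them. The 15 columns were not normalized alike, and the share of all genes highest in this one was not counted. Myl7 was at 1079.8 FPKM against 10.8 FPKM in the merged WT column, a ratio of 99.7, and Myl4 at 351 against 0.218 FPKM. Myl3 was at 127 FPKM, with WT listed at 0. These are the 3 light chains, and in each the KO value was over 10 times that of any other column, with ratios of 10.4, 15.4 and 13.6 to the next highest, WT head replicate 2 at E8.5. The troponins were at 121 against 0.0591 FPKM (Tnni1), 62.0 against 0.0545 FPKM (Tnnt2) and 174 against 2.27 FPKM (Tnnc1). Actc1 was at 790.4 against 9.73 FPKM, a ratio of 81.2, and Acta2 at 194 against 3.65 FPKM, a ratio of 53.3. Csrp3, below 1.1 FPKM in every other column, was at 74.4 FPKM, 68.4 times the next highest. Hopx was again apart, at 8.60 against 1.37 FPKM, which is below its 10.5 FPKM in the E8.5 WT heads. All 10 were at least 2-fold above WT, with 4.7% of all genes that much higher and 3.57% that much lower, and the median difference was 6.05 over the 10 and 0.03 over all genes. This is 1 library, so there is no spread to set beside any of these values.

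**Figure D4:**
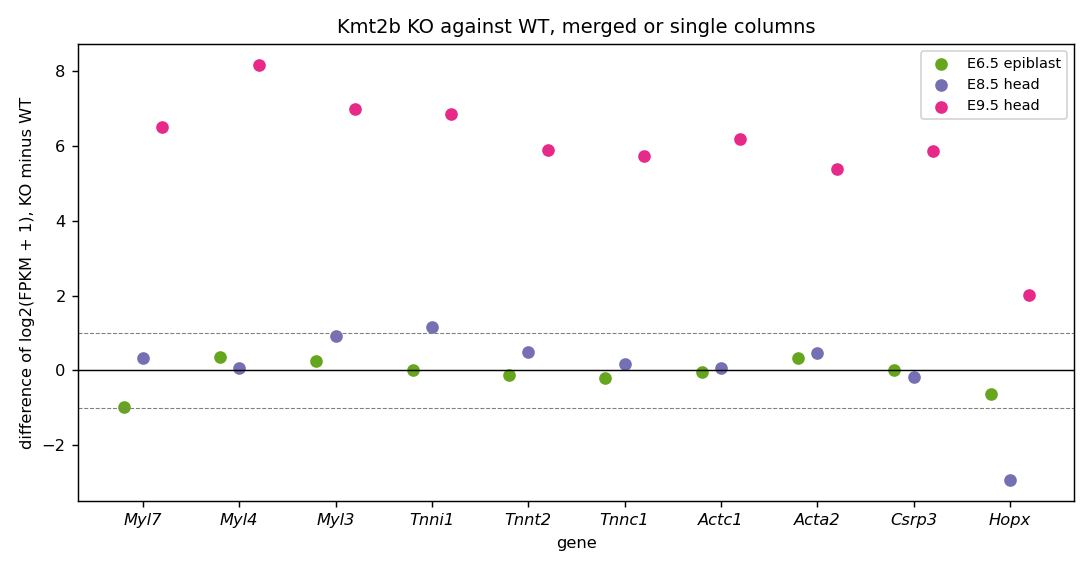
Kmt2b KO minus WT, in differences of log2(FPKM + 1), for the 10 genes at 3 stages, each point a single or merged column against a merged column, so with no error. Dashed lines mark 2-fold. The E9.5 points lie between 2.02 and 8.18, and at E8.5 Hopx (-2.94) and Tnni1 (1.17) lie past the lines.

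Sarcomere genes outside the 10 were also high in that library. Of the 31 other sarcomere and calcium-handling genes listed, 7 passed the filter of this table, and 5 of these 7 were at least 2-fold higher. Of the 31, 8 reached 1 FPKM in this column alone, and so had to be highest in it. Of the 13 others that reached 1 FPKM in some column, 12 were highest in the E9.5 KO. How many of all genes were highest in that column was not counted, so the 12 have no share to stand beside. Myl2, the ventricular regulatory light chain, was at 246 FPKM against 0.115 FPKM in WT. Acta1, skeletal actin, which the heart also makes, was at 56.7 against 0.270 FPKM, and Tnni3, the troponin I of the mature heart, at 46.5 against 0.159 FPKM. Myl1, an essential light chain of fast muscle, was at 22.7 against 0.322 FPKM. Myl2 was at no more than 1.84 FPKM in the other columns, a level reached in WT head replicate 2. The heavy chains were far lower than the light chains per length, with Myh7 at 5.42 FPKM and Myh6 at 2.32 FPKM, 2 genes picked after their values were seen. The list's sum was 968 FPKM against 299 FPKM in WT.

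Several regulators of heart muscle were also higher, and others were not. Of 18 heart transcription factors, 12 passed the filter and 6 were at least 2-fold higher in the E9.5 KO, with none at least 2-fold lower and a median of 0.96. Hand1 was at 13.7 against 0.0874 FPKM, and the GATA factors, which act with it in heart mesoderm, at 5.43 against 0.132 FPKM (Gata6), 4.46 against 0.0310 FPKM (Gata4) and 4.08 against 0.191 FPKM (Gata5). Of the 12, 2 were lower in the KO, both named after their values were seen: Isl1, a factor of heart precursors that brain and nerve cells also express, at 7.24 against 15.3 FPKM (a difference of -0.98), and Hey1, a target of Notch signalling, at 12.1 against 13.6 FPKM. Nkx2-5, the homeobox gene of heart precursors, picked after its values were seen, was at 0.435 FPKM against 0, and at 2.29 and 2.07 FPKM in the WT and KO heads of E8.5. Nppa, the atrial hormone, was the 1 of 3 heart hormone and secreted genes reaching 1 FPKM that was 2-fold higher, at 3.90 against 0.158 FPKM.

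Markers of other cell types in the E9.5 KO library were as follows, and their part in the result was not tested. Smooth muscle genes were 2-fold higher for 5 of 8 that passed, among them Des (9.53 against 0.330 FPKM), Cnn1 (6.69 against 0.0831 FPKM), Tagln (29.1 against 4.60 FPKM) and Myl9 (90.7 against 20.5 FPKM), several of which heart muscle also makes. Skeletal muscle genes summed to 15.4 FPKM against 6.99 FPKM, with Tnnt3 the most changed (3.81 against 0.747 FPKM). The defining factors of that lineage, picked after their values were seen, were at no more than 1.07 FPKM in the KO. Myog was listed at 0 in both columns, and Myod1 was at 0.174 FPKM in the KO and at 0 in WT. Myf5 was at 1.07 against 0.499 FPKM, and Myf6 at 0.275 against 0.142 FPKM. Endothelial genes summed to 22.6 against 21.6 FPKM, with Emcn lower (2.48 against 8.17 FPKM) and Egfl7 higher (15.7 against 8.94 FPKM), and red cell genes to 5871 against 15774 FPKM. Posterior trunk genes summed to 6.59 against 0.435 FPKM, with Hoxa5 (2.92 FPKM), Hoxb6 (1.80 FPKM) and Hoxb5 (1.53 FPKM) all at 0 in WT. The rest of that list, named after the values were seen, did not rise with them. Hoxb8, Hoxa9, Hoxa10, Cdx2 and Tbx6 were listed at 0 in the KO. Hoxc6 was at 0.104 against 0.0356 FPKM, and T at 0.234 against 0.322 FPKM. Visceral endoderm and yolk sac genes summed to 15.8 against 1.45 FPKM, with Rbp4 at 8.11 against 1.02 FPKM, Ttr at 5.79 FPKM against 0 and Apoa1 at 1.10 against 0.379 FPKM. Rbp4 was also at 2.71 FPKM in the E8.5 WT heads. The rest of that list, named after the values were seen, was low in the KO. Afp was at 0.535 FPKM, Amn at 0.194 FPKM, Cubn at 0.0517 FPKM, Apob at 0.0210 FPKM and Apoa4 at 0. Neural genes were present in both columns: the neural list summed to 115 against 154 FPKM, with Sox2, a factor of neural progenitors, at 13.0 against 30.1 FPKM. Whether the E9.5 KO library held head tissue alone was not tested. Foregut and other endoderm genes summed to 67.1 against 112 FPKM. Cranial mesoderm genes summed to 44.5 against 74.5 FPKM and neural crest genes to 39.5 against 42.2 FPKM.

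**Figure D5:**
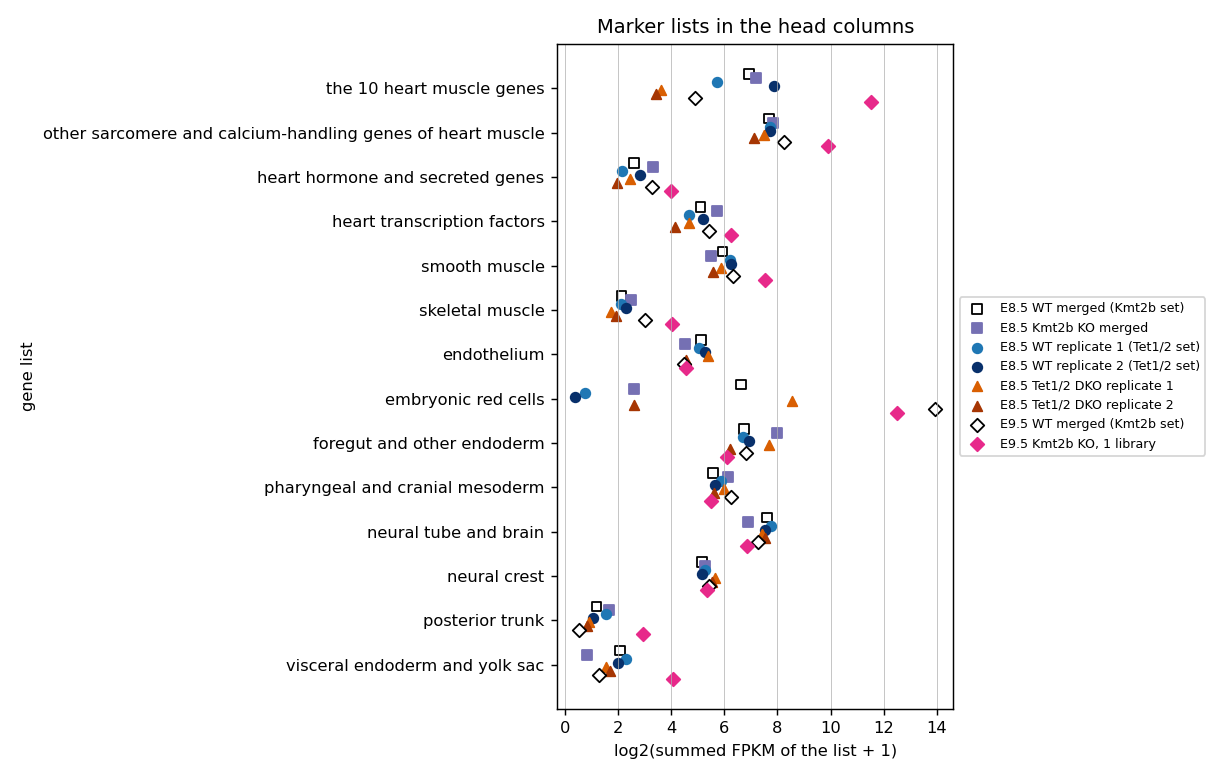
Summed level of each gene list in the 8 head columns (log2 of summed FPKM plus 1), for the 10 heart muscle genes and 13 marker lists. The 10 genes span from 9.81 FPKM (DKO replicate 2) to 2983 FPKM (E9.5 Kmt2b KO), while the neural, neural crest and cranial mesoderm lists lie close together.

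Among the 10 genes, Hopx was least like the rest. The Pearson correlation of its log2(FPKM + 1) with the mean of the group was 0.72 over the 6 columns of the Kmt2b set and 0.41 over the 9 libraries of the Tet1/2 set, against 0.98 to 0.99 and 0.72 to 0.99 for the other members of the group that were ranked. That mean includes the gene itself, and the 6 columns include the E9.5 KO on which the genes were chosen. High values for members were thus partly set in advance. The 8 genes most like the group's mean, out of 7697 that reached 5 FPKM in both tables and ranked by the lower of their 2 correlations, were Ppie and Cox4i2 (0.83), Snrnp25 and Arfrp1 (0.81), Tpm1, Csrp1 and Morn4 (0.80) and Cmtm8 (0.79). Only Tpm1 and Csrp1 are in a muscle list. Some of these ranges were narrow: Ppie ran from 63.8 to 102 FPKM, while Cox4i2 ran from 0.597 to 40.0 FPKM and was at 18.2 and 20.1 FPKM in the WT and 6.39 and 5.21 FPKM in the DKO heads. The columns share normalization and stage, and these correlations are a description.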

How the data were processed

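RNA was measured in epiblasts and heads of WT, Kmt2b-/- and Tet1-/-;Tet2-/- mouse embryos. The FPKM values were deposited by the authors in 2 tables; the submitters' processing notes name TopHat2 2.0.11, Cufflinks 2.0.2 and build mm9, without saying which step each served. From the values, all 9 columns of the Tet1/2 table share 1 distribution, as do the E6.5 and E8.5 columns of the Kmt2b table. FPKM keeps no depth, so no counting interval is given. Columns of no listed sample (2) were not used.

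Analyses used log2(FPKM + 1) of the genes reaching 1 FPKM in 2 or more columns. For the Tet1/2 table, limma 3.58.1 (R 4.3.3) was used (empirical Bayes with trend, Benjamini-Hochberg over all genes, two-sided, adjusted p under 0.05), for the head comparison over the 2 head groups and the DKO epiblasts, for the others over all 4 groups. The script was tested on simulated data. Kmt2b columns are merged, so they give differences without error, called at 2-fold. The members and marker lists were chosen with earlier results of these data known. The genes named are the 10 members, up to 4 for each list by size of difference in the E9.5 KO, heart-list genes called in the Tet1/2 heads, and the 8 most correlated genes. Wbp7, Mll2, Tet1 and Tet2 are named for the check of the labels, and genes picked after their values were seen are marked so. Sequences are RefSeq promoter windows. Other pseudocounts, filters, scalings, the replicate block and leaving out libraries were tried.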

Additional observations from a re-analysis of the deposited data

Results flagged for a closer look

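For 5 genes, limma's interaction contrast found a Tet1/2 DKO difference that itself differed between head and epiblast. On the log2(FPKM + 1) scale, the difference in the head minus that in the epiblast was -3.77 for Myl7, -2.50 for Tnni1, -3.19 for Tnnc1, -1.68 for Acta2 and -2.51 for Hopx. Tnni1 and Tnnc1 passed the filter on low values through the 2 WT heads alone, so they could not have come out higher in the DKO. The WT epiblasts come from the Kmt2b set, so set and genotype cannot be told apart on the epiblast side.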

How the results depend on the processing

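The numbers of genes called depend on few libraries. In the Tet1/2 heads none of the 9 members was called, and 2 were with all 4 groups in the fit. Leaving out single libraries gave 0 to 1, as it did in the epiblast. For the head minus epiblast difference, 5 members were called, 2 with a pseudocount of 5 FPKM, 1 with no filter on low values, 1 with the replicate block, and 1 to 5 without single libraries. With the block the 4 lost were of like size, Myl7 at -3.71, Tnni1 at -2.45, Acta2 at -1.68 and Hopx at -2.60, with adjusted p from 0.0559 to 0.0729. Without either WT head, 4 members no longer passed the filter. For the WT course the count was 8, and 4 to 8 without single libraries; for the DKO course it was 2, with 0 at a pseudocount of 5 FPKM, 1 with the replicate block and 1 to 4 without single libraries. For Kmt2b the epiblast count of 0 became 5 with a pseudocount of 0.1 FPKM and 1 after upper-quartile scaling, the E8.5 count of 2 became 1 with a pseudocount of 5 FPKM, and the WT count of 8 between E8.5 and E9.5 became 5. Every reversed sign was that of a small difference. In the epiblast, Tnnc1 moved from 0.00 to 0.18 with a pseudocount of 0.1 FPKM and to 0.23 without WT replicate 1 or DKO replicate 2, and Myl7 from 0.03 to -0.03 with the replicate block or without WT replicate 3 and to -0.02 without DKO replicate 2. In the DKO course, Myl3 was at -0.03 without epiblast replicate 1 and Tnnc1 at -0.07 without epiblast replicate 2. Without single libraries, Myl7 ran from -0.03 to 0.08 and Tnnc1 from -0.23 to 0.23 in the epiblast, and Tnnc1 from -0.07 to 0.40 in the DKO course. The cause was not tested.

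Replicate numbers did not pair the libraries: correlations of same-numbered deviations ran from -0.0103 to 0.193. Over all genes, 47 were called in the Tet1/2 heads, from 3 without DKO head replicate 1 to 290 without DKO epiblast replicate 1; 2978 for the head minus epiblast difference (1162 to 4047); 3970 in the epiblast (2501 to 4364); 4161 for the WT course (2157 to 4872); and 5609 for the DKO course (3355 to 5821). Pseudocounts of 5 and 0.1 FPKM moved the Kmt2b counts from 189 to 41 and 589 in the epiblast, from 524 to 153 and 1152 at E8.5, from 915 to 325 and 1709 at E9.5, and from 2114 to 885 and 3163 for the WT course. The planned look at CpG methylation near the start sites was not run, since it needs an mm9 annotation, which was not used here. The E9.5 KO rests on 1 library, which cannot be left out.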
